A study of Mus musculus with 6 samples.

Results

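The myocytes described here were the 85 cells of the control (CO) uterus that the study's annotation named Myocytes, that passed its quality filter and that have counts. They made up 0.694% of the 12253 annotated CO cells (exact Clopper-Pearson 95% interval 0.554 to 0.857), out of 48699 single cells in the series. No cell of the uterus exposed to diethylstilbestrol (DES) carried that name, 0 of 9701 annotated cells, which allows a share of up to 0.0309%. The description therefore runs from the CO myocytes to the DES cells that hold muscle transcripts, and then to tissue sections of both treatments, where the muscle coat was still in place.

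All mice were CD-1 females given corn oil (the CO groups) or DES at 1 mg/kg/day by subcutaneous injection on days 1 to 5 after birth, and their uteri were taken at 12 months of age. DES is a synthetic estrogen, and the CO mice were in estrus while the exposed mice were in persistent estrus. The single-cell data came from 1 CO library made from the pooled uteri of 2 mice and 1 DES library made from those of 4 mice. Spatial RNA was measured in 2 CO and 2 DES sections, called A and B, from 1 mouse each. No further allele or agent separated the groups. The single cells were released with trypsin from uterine horns that had been slit open, and the tissue was taken out before the suspended cells were collected, so what could be seen of the muscle depended on which cells came loose. With 1 library per treatment, differences between single-cell libraries have no replicate check and are given without a test.

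Smooth muscle of the uterine wall, the myometrium, lies in an inner and an outer layer and contracts when calcium entering through voltage-gated channels lets myosin light chain kinase act on myosin. Calponin, caldesmon and transgelin bind the actin filaments, desmin and the dystrophin complex tie them to the cell membrane, and potassium channels and cyclic GMP oppose contraction. Oxytocin and prostaglandins raise the force through receptors on the muscle cell, and estrogen and progesterone set how much of that machinery is made. Many of these genes are switched on by serum response factor with its partner myocardin at a short DNA element, the CArG box.

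That element could be read in the promoters of several genes that set the myocytes apart. The 250 bases before the start of each gene were taken from RefSeq (build GRCm38.p6) and searched on both strands for the consensus CArG box, named here by its name alone. A box stood in 482 of 32851 promoters (1.47%), and in 11 of the 160 promoters (6.88%) that were found for 114 of the 151 myocyte signature genes defined further on. Among the signature genes at least 40-fold higher in myocytes, 5 of the 22 genes with a promoter held one. The stretches shown are on the gene's own strand, 5′ to 3′, with the box in capitals. They were chosen because their genes are among the 20 highest myocyte ratios, and they give the letters a reader would look for beside the levels reported below.
Acta1 (chr8:123894809-123894878, minus strand): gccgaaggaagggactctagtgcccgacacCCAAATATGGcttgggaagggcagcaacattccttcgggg
Myom1 (chr17:71019428-71019497, plus strand): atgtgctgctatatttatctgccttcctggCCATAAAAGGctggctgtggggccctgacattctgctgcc
Asb2 (chr12:103356026-103356095, minus strand): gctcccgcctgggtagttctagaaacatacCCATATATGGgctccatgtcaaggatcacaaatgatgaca
Fbxl22 (chr9:66514776-66514843, minus strand): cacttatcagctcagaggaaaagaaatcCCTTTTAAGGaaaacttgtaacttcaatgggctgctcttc
Myl9 (chr2:156775273-156775342, plus strand): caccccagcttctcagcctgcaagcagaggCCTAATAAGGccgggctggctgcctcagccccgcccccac
The Acta2 window below is shown for its looser matches. It held no full box, and its 2 stretches in capitals each miss the consensus by 1 base, a looser match that 8.59% of all promoters and 20.6% of the signature promoters hold.
Acta2 (chr19:34255374-34255487, minus strand): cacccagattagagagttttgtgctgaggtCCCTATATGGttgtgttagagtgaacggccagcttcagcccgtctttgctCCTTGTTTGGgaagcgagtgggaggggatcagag
The boxes began 73 bases before the annotated start in Acta1, 99 in Myom1, 64 in Asb2, 222 in Fbxl22 and 161 in Myl9. A match, a looser match or the lack of one is a description of these letters and was not tested against binding. Promoters of Tagln, Myh11 and Actg2 were not analysed here.

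The myocytes were among the larger CO cells by counts. They held a median of 11282 UMIs (unique molecular identifiers, each a counted RNA molecule) with a range of 2948 to 45692, and a median of 3109 genes and 8.72% mitochondrial UMIs. Over all annotated CO cells the median was 10775 UMIs. No myocyte barcode was among the 180 that the CO and DES libraries shared. A further myocyte in the metadata had no column of counts and was left out.

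The annotation was first set against 6 muscle markers: the actins Acta2 and Actg2, smooth muscle myosin heavy chain Myh11, transgelin (Tagln), calponin (Cnn1) and leiomodin (Lmod1). The 6 markers together took 0.741 to 7.38% of the UMIs of each myocyte, with a median of 3.77%. All 6 were found together in 80 of the 85 cells (94.1%, 95% interval 86.8 to 98.1). Among the other 12168 annotated CO cells, all 6 were seen together in 1 epithelial cell and 1 pericyte. Pericytes, the contractile cells of small vessels, came nearest, with a median share of 0.0649%. The name therefore fits the cells' transcripts. Since the types were formed on these same counts, the levels that follow are descriptions and carry no test, and their intervals cover counting error only.

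**Figure D1:**
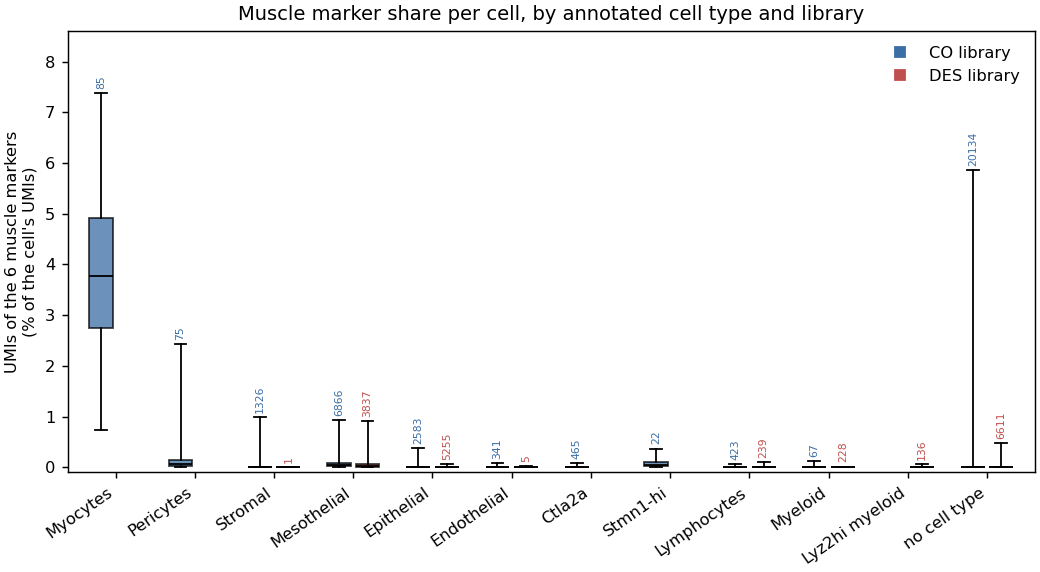
Share of each cell's UMIs that came from the 6 muscle markers (y axis, %), by annotated cell type (x axis) in the CO and DES libraries. Boxes span the quartiles with the median as a line, whiskers reach the lowest and highest cell, and the number of cells stands above each box. CO myocytes, with a median of 3.77%, stand above all other boxes, the DES library has no myocyte box, and among CO cells without a cell type the whisker reaches 5.86%.

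In myocytes the summed level of Acta2 was 11786 CPM (UMIs of the gene per 1000000 UMIs, 95% Poisson interval 11584 to 11991), against 79.4 CPM in the other annotated CO cells, a ratio of 148. Per 10000 UMIs, the lowest myocyte held 17.1 Acta2 UMIs, the median cell 127 and the highest 241. The order over cell types put pericytes next, at 1211 CPM. For Tagln the lowest, median and highest myocyte held 18.3, 136 and 276 per 10000, and the summed level was 12979 CPM, 58.2-fold over the other cells. Tagln and Acta2 were thus the markers that other cells shared most, with 466 and 154 CPM in the mesothelial cells that cover the outside of the uterus.

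The remaining 4 markers were rarer still in the summed other cells. Actg2, the gamma actin of visceral smooth muscle, reached 5811 CPM against 1.84 CPM in the other cells, a ratio of 3151 (95% interval 2823 to 3526). It was missing from 1 myocyte, and the median cell held 52.6 per 10000 UMIs and the highest 179. Cnn1 stood at 2597 CPM, 2167-fold higher, with a UMI in every myocyte. Myh11 stood at 2419 CPM, 1105-fold higher, and ranged from 5.55 to 57.0 per 10000 with no cell at 0. Lmod1, which starts new actin filaments, was seen in 80 cells at 375 CPM, 1087-fold higher. Pericytes again came next. Their 75 cells stood at 210 CPM of Myh11, found in 28 cells, and at 207 CPM of Actg2 and 82.3 CPM of Cnn1, each found in 2 cells. The ratios depend on the mix of the other cells: with each other type given equal weight they were 234-fold for Actg2, 256-fold for Cnn1, 96.5-fold for Myh11, 129-fold for Lmod1 and 61.3-fold for Acta2.

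The differences stood at equal depth too. With every cell thinned to 3000 UMIs, which kept 84 myocytes and 11806 other cells, Actg2 was seen in 98.8% of myocytes and 0.542% of the others. At full depth, CO epithelial cells, a class that should lack the gene and had a median of 23458 UMIs, held an Actg2 UMI in 2.83% of cells. After thinning that share was 0.195%. Lmod1 was seen in 65.5% of thinned myocytes and 0.169% of thinned other cells.

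A wider myocyte signature was then drawn up of genes at least 4-fold higher in myocytes, at 50 CPM or more and with a UMI in at least 10% of them. It held 151 genes. They supplied 10.0% of myocyte UMIs and 0.553% of the UMIs of other annotated CO cells. Of these genes, 121 were higher in myocytes than in any other annotated CO type and 30 were higher in another type. Pericytes were the highest other type for 62 genes, and 44 genes were at least 4-fold over whichever type came next. For reference, of the 6774 genes that reached 20 CPM in either group, 240 (3.54%) were at least 4-fold higher and 287 (4.24%) at least 4-fold lower in myocytes. Of the same 6774 genes, 617 were higher in myocytes than in any other annotated CO type. The signature was chosen as higher in myocytes on these counts, so its 121 of 151 is partly fixed by that choice.

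**Figure D2:**
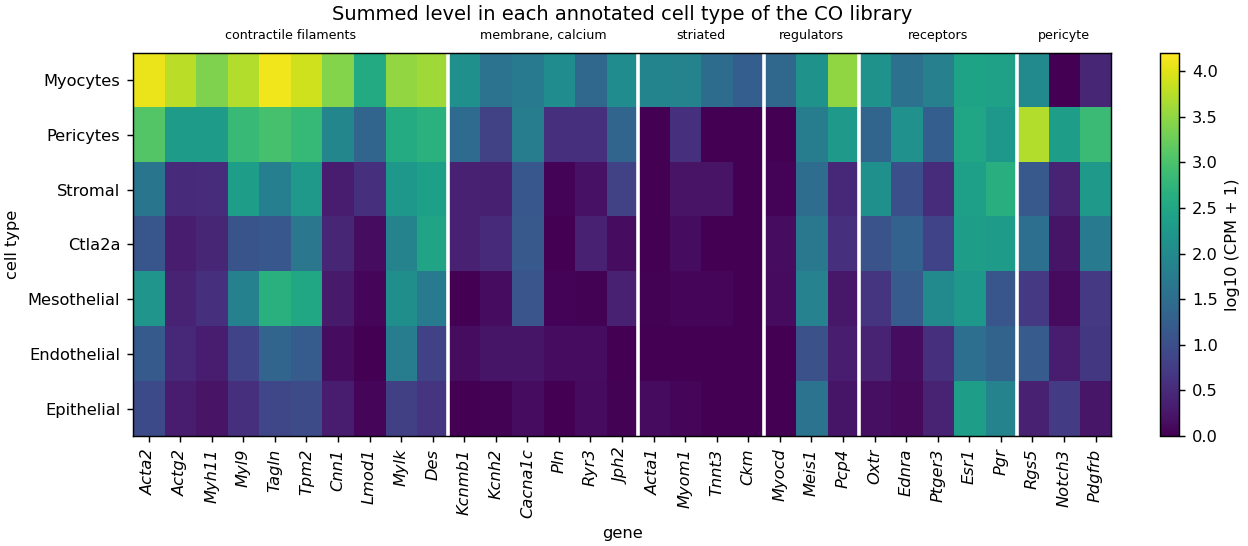
Summed level of selected genes (x axis, grouped by role) in myocytes and 6 other annotated CO types (y axis), as log10 of CPM + 1 in color. The contractile genes are brightest in myocytes with pericytes next, Esr1 is between 171 and 289 CPM in myocytes, pericytes, stromal and mesothelial cells while Pgr is at 12.2 CPM in mesothelial cells, and Notch3 is at 0 in myocytes.

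Of the 17 genes for contractile filaments and their regulators, 14 were at least 4-fold higher in myocytes and none was 4-fold lower, against 3.54% of all measured genes. Besides the markers these were the regulatory light chain Myl9 (5181 CPM, 106-fold), myosin light chain kinase Mylk (3316 CPM, 46.0-fold), the tropomyosins Tpm2 (7979 CPM, 48.7-fold) and Tpm1 (5074 CPM, 15.5-fold), and Ppp1r14a, an inhibitor of myosin phosphatase (397 CPM, 47.8-fold). Smoothelin (Smtn) at 684 CPM was 23.0-fold, the phosphatase subunit Ppp1r12b at 244 CPM 13.2-fold and caldesmon (Cald1) at 2770 CPM 7.55-fold higher. Of the 14, Actg2, Cnn1, Myh11, Lmod1, Ppp1r14a and Ppp1r12b were below 20 CPM in the other cells, so they counted as measured through the myocytes. Every myocyte held Myl9, from 10.9 to 108 per 10000 UMIs. The essential light chain Myl6, which most cells use, was 3.82-fold higher, below the 4-fold limit.

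Among genes that anchor the filaments, 12 of the 25 measured were at least 4-fold higher, beside 3.54% of all measured genes. Desmin (Des), the intermediate filament of muscle, was in all 85 cells, with a lowest, median and highest level of 1.83, 37.6 and 115 per 10000, and its summed 3917 CPM was 87.1-fold over the other cells. Pgm5, a protein of muscle adhesion plaques, was at 118 CPM (54.3-fold), filamin A (Flna) at 1350 CPM (13.2-fold), Csrp1 at 1845 CPM (12.4-fold) and Synpo2 at 387 CPM (11.4-fold). A further 6 lay between 4.08-fold (Pdlim3) and 6.29-fold (Synm), with Itga5, Fermt2, Actn1 and dystrophin (Dmd) between them. Of the anchors named here, Pgm5, Synm and Itga5 were below 20 CPM in the other cells, so they counted as measured through the myocytes. With each other type given equal weight, 9 of the 12 were still at least 4-fold higher, and Synm was 3.81-fold, Itga5 2.70-fold and Fermt2 2.70-fold higher. Vimentin (Vim), the intermediate filament of fibroblasts and endothelium, went the other way, at 231 CPM in myocytes against 708 CPM in the other cells.

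Calcium and potassium genes were higher in part, and patchy over these cells. Of 18 measured channel and calcium genes, 8 were at least 4-fold higher, beside 3.54% of all measured genes. All of these 8 but Atp2b4 were below 20 CPM in the other cells, so they counted as measured through the myocytes. Phospholamban (Pln), which restrains the calcium pump of the reticulum, was at 111 CPM, 1355-fold over the other cells, but its 122 UMIs came from 50 of the 85 cells and the median cell held 0.758 per 10000. The beta subunit of the large calcium-activated potassium channel, Kcnmb1, was at 125 CPM in 54 cells (634-fold), and its pore, Kcnma1, at 26.4 CPM in 25 cells (21.7-fold). Kcnh2, a repolarising potassium channel, was at 38.3 CPM (113-fold) and the release channel Ryr3 at 25.5 CPM (106-fold). The L-type channel pore Cacna1c was at 52.0 CPM (7.66-fold), close to the 56.7 CPM of pericytes. The calcium pump Atp2b4 (5.81-fold) and the channel Kcnj8 (6.33-fold) completed the group, and Kcnj8 was far higher in pericytes, at 471 CPM. With each other type given equal weight, 6 of the 8 were still at least 4-fold higher, Atp2b4 was 3.76-fold higher, Kcnj8 was at 0.435 of the other types, and Kcnmb1 was 35.5-fold higher. Ryr2 had no UMI. Connexin 43 (Gja1), the gap junction protein of the contracting uterus, was at 59.3 CPM in myocytes against 137 CPM in the other cells, a ratio of 0.432.

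Other genes among the 20 highest ratios were of several kinds. Pcp4, a small calmodulin-binding protein, was in 84 of 85 cells at 3137 CPM, 2470-fold over the other cells, with a median of 31.9 and a highest value of 81.3 per 10000. Dpp6, a potassium channel partner, was at 79.3 CPM (966-fold), and Nptx2, a secreted pentraxin, at 57.4 CPM (700-fold). Sh3bgr at 391 CPM (433-fold), Fbxl22 at 519 CPM (117-fold), Asb2 at 91.2 CPM (165-fold) and the junctional protein Jph2 at 108 CPM (99.3-fold) followed. Hmcn2 stood at 85.7 CPM (89.5-fold) and Mir143hg, the host transcript of microRNAs of smooth muscle, at 181 CPM (78.7-fold).

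Transcripts known from striated muscle formed a small, uneven group. The skeletal actin Acta1 reached 76.6 CPM, 500-fold over the other cells, yet its 84 UMIs lay in 21 of the 85 cells and the highest cell held 8.64 per 10000. Myom1, a protein of the sarcomere's M band, was at 73.9 CPM in 49 cells (386-fold). The troponins Tnnt3 and Tnnt2 were at 29.2 CPM in 13 cells (232-fold) and 43.8 CPM in 23 cells (8.80-fold). Creatine kinase Ckm had 19 UMIs in 14 cells (17.3 CPM), and cardiac actin Actc1 had 4 UMIs, all in 1 cell. At least 1 of Acta1, Tnnt3, Ckm, Tnnt2 and Actc1 was found in 51 myocytes, and 2 or more in 17. The skeletal and cardiac myosins Myh1 and Myh7 had no UMI. The 51 cells had a median muscle marker share of 4.32%, and the 34 without any of the 5 genes had 3.06%.

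Among regulators, 1 of 12 measured smooth muscle transcription factors was at least 4-fold higher, beside 3.54% of all measured genes. This was myocardin (Myocd), with 27 UMIs in 21 cells (24.6 CPM) against 0.153 CPM in the other cells, a ratio of 161 (95% interval 91.1 to 283). It counted as measured through the myocytes. Its partner serum response factor (Srf) was at 33.7 CPM in myocytes and 32.8 CPM in the others. Gata6 stood at 109 CPM and 114 CPM, Mef2c at 78.4 and 50.1 CPM, and Klf4, a factor that restrains the contractile program, at 62.0 and 217 CPM. Without 14 cells that also held transcripts of another class, described below, Klf4 was at 20.5 CPM.

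Of 18 receptors that drive contraction, 6 reached 20 CPM in either group, and 2 of these were at least 4-fold higher in myocytes, beside 3.54% of all measured genes. Both, Oxtr and Ednra, were below 20 CPM in the other cells (10.4 and 8.32 CPM), so they counted as measured through the myocytes. The oxytocin receptor Oxtr was at 138 CPM (95% interval 117 to 161), 13.3-fold over the other cells, with 151 UMIs in 65 of the 85 myocytes and a median and highest cell of 0.95 and 16.6 per 10000. Thinned to 3000 UMIs, 33.3% of myocytes and 3.85% of other cells held it, and CO epithelial cells were at 0.495 CPM. Stromal cells stood at 129 CPM, inside the interval of the myocytes. Without the 14 mixed cells the myocytes were at 160 CPM (134 to 191), an interval that lies above the stromal level. Endothelin receptor Ednra was at 36.5 CPM (4.38-fold), below the 130 CPM of pericytes, and with each other type given equal weight it was 1.73-fold higher. Prostaglandin receptor Ptger3 was at 67.5 CPM (1.47-fold) in 43 cells, and Agtr1a at 20.97 CPM (0.503 of the other cells), which was 11.6 CPM without the mixed cells.

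The remaining receptors were at the limit of what these counts can show. Ptger4 was at 10.9 CPM against 40.3 CPM in the other cells, Ednrb at 10.9 CPM and Ptger1 at 4.56 CPM. The prostaglandin F receptor Ptgfr, the vasopressin receptor Avpr1a and the muscarinic receptor Chrm3 had 2 UMIs each, and Tacr2 and Bdkrb2 had 1. Ptger2, Chrm2, Adra1a, Adra1b and Htr2b had none, and a count of 0 in 1096638 myocyte UMIs allows a level of up to 2.74 CPM.

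Steroid receptors were present in nearly every myocyte without marking it. The estrogen receptor Esr1 was at 275 CPM in 76 cells, against 196 CPM in the other annotated cells (1.40-fold) and 289 CPM in pericytes. The progesterone receptor Pgr was at 256 CPM in 78 cells, 3.64-fold over the others but below the 435 CPM of stromal cells. Per 10000 UMIs the median myocyte held 2.77 Esr1 and 2.48 Pgr. A UMI of both Oxtr and Pgr was found in 61 of the 85 cells. After thinning, Esr1 was seen in 52.4% of myocytes and 42.5% of other cells, and Pgr in 53.6% and 15.9%. The glucocorticoid receptor Nr3c1 was at 52.0 and 58.1 CPM, Nr3c2 had 4 UMIs, and Esr2 and Gper1 had none.

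Genes of relaxation signalling were partly higher. Their list also holds genes that act against relaxation, such as Pde5a, which breaks down cyclic GMP. Of 10 measured, 4 were at least 4-fold higher, beside 3.54% of all measured genes. They were the cyclic GMP esterase Pde5a (81.2 CPM, 12.7-fold), the kinase Prkg1 (32.8 CPM, 6.41-fold), its partner Mrvi1 (243 CPM, 8.16-fold) and Rgs5. Of these, only Mrvi1 reached 20 CPM in the other cells (29.7 CPM), so Pde5a, Prkg1 and Rgs5 counted as measured through the myocytes. The Rgs5 value rested on 1 cell, which held 89 of the 110 UMIs, and without the 14 mixed cells described below it was 25.7 CPM, 1.83-fold over the other cells. With each other type given equal weight, Mrvi1 alone of the 4 was still at least 4-fold higher (6.07-fold), with Prkg1 at 3.92-fold, Pde5a at 2.69-fold and Rgs5 at 0.173 of the other types. Rgs2, a brake on oxytocin-type receptors, was at 91.2 CPM (3.09-fold).

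In other groups few genes passed 4-fold, as among all measured genes, of which 3.54% were 4-fold higher and 4.24% 4-fold lower. None of the 21 measured genes for basement membrane and matrix passed 4-fold in either direction. Collagens Col1a1 and Col3a1 were at 337 and 740 CPM, 0.602 and 0.499 of the other cells, and Col4a1 was at 232 CPM (1.23-fold). Decorin (Dcn), a matrix proteoglycan, was found in all 85 myocytes at 3205 CPM, while mesothelial cells reached 17675 CPM. None of the 8 measured genes of uterine position and none of the 2 measured cell cycle genes passed 4-fold. Of 14 immediate early and heat shock genes, which cell dissociation can raise, none was 4-fold higher, Fosb was lower (40.1 against 210 CPM), and Fos stood at 519 against 1064 CPM.

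The 10 lowest ratios were in immunoglobulin and secretory genes of other cells. For this ranking a myocyte count below 3 UMIs was raised to 3, as in Ccl7 and A2m, whose ratios without that were 0.0150 and 0.0164. Jchain (4.56 against 261 CPM), Igkc (24.6 against 1158 CPM) and Igha (12.8 against 308 CPM) are made by plasma cells, and the 27 Igkc UMIs were spread over 24 myocytes with at most 2 in any. Ccl11, Ccl7 and A2m, highest in stromal cells, had 3, 1 and 1 UMIs. Prss28, Prss29, Spink1 and Sprr1a, highest in epithelial cells, were at 3.65, 20.1, 5.47 and 13.7 CPM.

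Transcripts of other classes showed how pure the cells were. Vessel-wall markers were at low levels: 10 of the 12 had a UMI, Notch3 and Heyl had none, and the summed level of the list ran from 0 to 105 per 10000 UMIs with a median of 1.32, against a median of 106 in pericytes. The 4 that reached 20 CPM (Rgs5, Cspg4, Mcam and Kcnj8) were all at least 4-fold higher than in the mix of other cells. Of all measured genes, 3.54% were. All 4 were below 20 CPM in the other cells (1.61 to 14.0 CPM), so they counted as measured through the myocytes. They were higher still in pericytes. Without the 14 mixed cells Rgs5 was 1.83-fold higher and no longer among them, and with each other type given equal weight none of the 4 was 4-fold higher. The 8 endothelial markers had 16 UMIs in all, 1 in each of 16 cells, with Vwf, Tie1 and Cldn5 at 0. All 10 stromal markers were present, at a median of 38.5 per 10000 against 206 in stromal cells. This list was as high in mesothelial cells, at 230, and stood at 35.1 in pericytes. Pdgfra had 3 UMIs in the myocytes. The lymphocyte list had 4 UMIs and the myeloid list 34. Nerve and glia genes had 10 UMIs, and Kit and Gpr20 of interstitial cells had none.

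Mesothelial and epithelial transcripts were concentrated in a few myocytes. At least 10 UMIs of the mesothelial genes Msln, Upk3b, Gpm6a and Lrrn4 were found in 9 myocytes, which held 78.3% of those UMIs. At least 10 UMIs of the epithelial genes Epcam, Cdh1 and Cldn3 were found in 5 myocytes, with 66.8% of the UMIs. One myocyte held 104 UMIs of the pericyte genes Rgs5, Higd1b and Ndufa4l2. No myocyte reached 10 UMIs of the endothelial or the stromal defining genes. In all, 14 cells met 1 or more of these limits. Their median was 21456 UMIs with a muscle marker share of 2.27%, against 10954 UMIs and 4.02% for the other 71. The part of shared droplets in this was not tested. The methods had already removed called doublets, and a second caller, Scrublet, marked 1692 CO cells (5.22%) and 1 myocyte. Without the 14 cells the signature held 179 genes in place of 151.

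Without the 14 mixed cells, the muscle genes given here had higher values, and genes of other classes moved both ways. Prss29 went from 20.1 to 24.4 CPM and Jchain from 4.56 to 5.13 CPM. Actg2 went from 5811 to 7053 CPM, Acta1 from 76.6 to 101 CPM and Oxtr from 138 to 160 CPM. Upk3b went from 116 to 25.7 CPM, Epcam from 131 to 39.8 CPM and Dcn from 3205 to 2025 CPM. Upk3b and Epcam were among the genes that chose the mixed cells, so their falls were fixed by that choice. Esr1 was as high without the mixed cells, at 276 CPM.

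**Figure D3:**
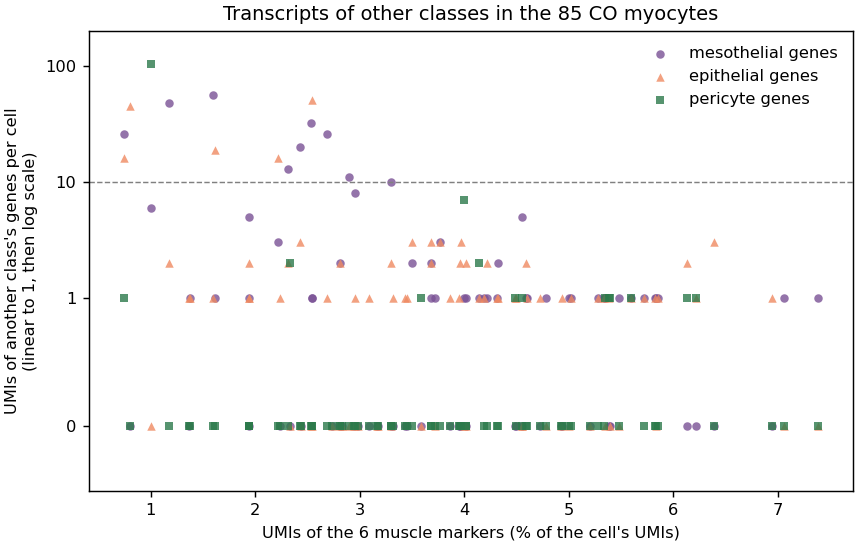
UMIs of the defining genes of mesothelial, epithelial and pericyte cells in each of the 85 CO myocytes (y axis, linear to 1 and then log scale) against the share of the cell's UMIs from the 6 muscle markers (x axis, %). Each cell has 3 points, 1 per class, and the dashed line marks 10 UMIs. The points above the line belong to 14 cells, whose median muscle marker share is 2.27% against 4.02% in the others.

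In the DES library the muscle transcripts were almost gone. Over all 16312 DES cells, Actg2 had 11 UMIs (0.0381 CPM), against 9397 UMIs (26.6 CPM) over all 32387 CO cells. Cnn1 had 22 UMIs against 4397, Lmod1 2 against 664, Pln 8 against 200 and Kcnmb1 4 against 268. No DES cell held all 6 markers together, which allows a share of up to 0.0184% of cells, and the highest marker share in any DES cell was 0.919%. More UMIs remained of the other 3 markers: Tagln had 24311 against 85305 in the CO library, Acta2 8301 against 41821 and Myh11 284 against 4498.

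Most of that signal lay in mesothelial cells. DES mesothelial cells held 332 CPM of Tagln and 109 CPM of Acta2, against 466 and 154 CPM in CO mesothelial cells. Myh11 was at 3.64 and 2.76 CPM in DES and CO mesothelial cells. Actg2 was at 0.0929 CPM in DES and 1.56 CPM in CO mesothelial cells, and Cnn1 at 0.0619 and 0.987 CPM. In epithelial cells Actg2 was at 0.00568 CPM in the DES and 1.09 CPM in the CO library. Not every muscle gene was lower in the DES cells. Desmin was at 50.3 CPM in both, and myocardin had 69 UMIs (1.07 CPM) in DES and 26 UMIs (0.313 CPM) in CO mesothelial cells. Whether uteri exposed to DES had fewer muscle cells or released fewer of them cannot be told apart from these libraries.

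The sections gave the levels of the muscle genes in the tissue that was cut. Each Visium spot is a small circle of tissue that can hold several cells of different types. The sections held 1357 to 1834 spots and 9117099 to 12506177 UMIs. The blocks had been cored to reach areas of interest, so the amount of muscle in a section also reflects what was cut. Before the mice were selected, DES sections alone were also checked for adenocarcinoma. The paper further reports a tissue fold in CO section B and limited identification of clusters in DES section B. The 6 markers took 1.27 and 1.30% of the UMIs of CO sections A and B, and 0.286 and 0.331% of DES sections A and B, so the treatments did not overlap. Muscle was nevertheless present in every section, with a highest spot of 6.28 and 8.11% in CO and 4.84 and 4.60% in DES.

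Summed over whole sections, all 6 markers fell with DES under edgeR's quasi-likelihood fit (p-values adjusted by Benjamini-Hochberg over 14098 genes). Over all genes, 2.63% were called lower. Actg2 was at 2859 and 2613 CPM in the CO sections and 242 and 267 CPM in the DES sections, a log2 difference of -3.43 (SE 0.20, adjusted p = 0.0156). Cnn1 was at 2583 and 2322 against 398 and 473 CPM (log2 -2.50, SE 0.21, adjusted p = 0.01996). Myh11 was at 2034 and 1891 against 324 and 427 CPM (log2 -2.39, SE 0.23, adjusted p = 0.0212). Acta2 (4730 and 4533 against 1139 and 1376 CPM), Tagln (1550 and 2098 against 441 and 553 CPM) and Lmod1 (131 and 180 against 60.7 and 62.6 CPM) fell by 1.89, 1.88 and 1.35 on the log2 scale. With the section letter as a replicate block, the call of Lmod1 was lost. In none of the 6 did the treatments overlap, and both DES sections lay below both CO sections in 27.3% of all genes. In sections, fewer muscle cells and less RNA per muscle cell cannot be told apart.

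The wider signature moved with the markers. Of its 151 genes, 66 were lower and 1 was higher in DES sections, beside 2.63% of all genes lower and 2.67% higher. The median log2 difference was -1.32, against -0.01 over all genes. In 127 signature genes both DES sections lay below both CO sections, which was true of 27.3% of all genes, and in 2 above both, which was true of 29%. In the other genes the treatments overlapped. The exception that rose was Ltbp1, a matrix protein that binds latent TGF-beta (69.2 and 66.5 CPM in CO, 151 and 204 CPM in DES, log2 1.38, adjusted p = 0.0360). These calls needed both DES sections. Without DES section A or without DES section B, each of which left 1 DES section that had to be assumed to vary like the CO pair, edgeR called no signature gene lower, although 146 and 145 had a negative difference and 95 and 99 of them had an unadjusted p under 0.05. Without CO section A 107 were lower and without CO section B 116.

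By role, and beside 2.63% of all genes lower and 2.67% higher, 14 of the 17 contractile genes were lower, 15 of 27 tested anchors and 10 of 25 tested channel and calcium genes, and none of the 13 tested smooth muscle transcription factors was called by edgeR (3 lower and 1 higher had an unadjusted p under 0.05, and DESeq2 called 1 lower and 1 higher). Pln fell from 16.8 and 18.1 CPM to 2.30 and 1.26 CPM (log2 -3.30, SE 0.36, adjusted p = 0.0219). Kcnmb1 fell from 76.7 and 58.9 to 19.98 and 28.5 CPM (log2 -1.49, adjusted p = 0.0452). The largest falls among all listed and signature genes were striated ones. Ckm was at 28.8 and 56.5 CPM in CO and 1.10 and 0.870 CPM in DES sections (log2 -5.43, SE 0.48, adjusted p = 0.0206). Acta1 was at 255 and 432 against 7.69 and 13.4 CPM (log2 -5.03, SE 0.45, adjusted p = 0.0206), and Actc1 at 8.68 and 25.7 against 1.10 and 1.35 CPM (log2 -3.80, SE 0.66, adjusted p = 0.0457). Tnnt3 was lower as well, while Tnnt2 was at 4.12 and 3.71 against 6.79 and 6.48 CPM and was not called.

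**Figure D4:**
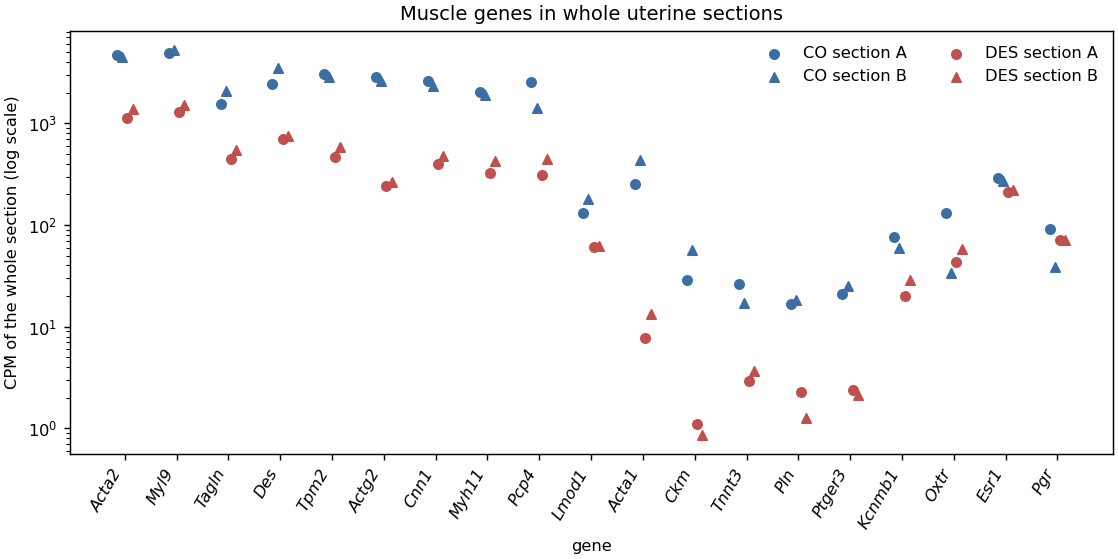
Level of muscle, receptor and striated genes (x axis) in each of the 4 whole sections (y axis, CPM, log scale). Circles are sections A and triangles sections B, blue CO and red DES, with no averaging. The DES points lie below the CO points for all genes from Acta2 to Kcnmb1 (Acta1 at 7.69 and 13.4 CPM against 255 and 432 CPM), while the sections overlap for Oxtr and Pgr.

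Of 12 tested contraction receptors 4 were lower and none was higher, beside 2.63% of all genes lower and 2.67% higher. Ptger3 fell the most, from 20.9 and 24.9 CPM to 2.40 and 2.13 CPM (log2 -3.34, SE 0.26, adjusted p = 0.0183). Ednrb and Bdkrb2 were also lower (log2 -2.28 and -1.64, adjusted p = 0.0333 and 0.0446). In the CO single cells Ednrb was at 10.9 CPM in myocytes, against 125 CPM over the other types given equal weight. On that scale Ptger3 was at 67.5 against 23.3 CPM. Bdkrb2 had 1 UMI in myocytes and was highest in stromal cells, at 28.5 CPM. Which cells these falls came from was not tested. Oxtr was not called. It was at 130 and 33.7 CPM in the CO sections and 43.7 and 58.4 CPM in the DES sections, so the treatments overlapped (log2 -0.69, SE 0.63, adjusted p = 0.570), and without CO section A the difference was 0.58. None of the 5 tested steroid receptors was called by edgeR. Esr1 was at 293 and 274 against 210 and 222 CPM (log2 -0.40, SE 0.16, adjusted p = 0.215) and Pgr at 92.3 and 38.8 against 71.5 and 71.2 CPM (log2 0.12, SE 0.42). Nr3c1 and Nr3c2 had unadjusted p of 0.0198 and 0.0209, both with higher DES sections, and DESeq2 called none of the 5.

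Of 24 genes for basement membrane and matrix, 8 were lower and 1 was higher, and of 12 genes of uterine position 3 were lower and 1, Wnt4, was higher, beside the same 2.63% and 2.67% of all genes. Of 11 genes of relaxation signalling 1, Rgs5, was lower by edgeR, while 5 had an unadjusted p under 0.05 in that direction and DESeq2 called 5 lower. No cell cycle gene of 10 was called by edgeR, with 2 lower and 1 higher at an unadjusted p under 0.05 and 1 lower by DESeq2.

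Some genes of other classes differed in the same sections, beside 2.67% of all genes higher and 2.63% lower: 2 of 7 tested mesothelial markers were higher, 3 of 10 stromal markers were lower, and none of the 8 myeloid markers was called by edgeR (3 higher at an unadjusted p under 0.05, and 3 by DESeq2). The largest rises among the genes followed were Muc16 and Upk3b of mesothelial cells (log2 5.08 and 2.93), Cd79a of B cells (3.98), Kit (2.70) and Wnt4 (1.93). The summed mesothelial markers were at 41.6 and 56.4 CPM in CO and 63.9 and 93.4 CPM in DES sections, myeloid markers at 704 and 1169 against 2992 and 3632 CPM, and stromal markers at 5648 and 6660 against 2921 and 2070 CPM. The vessel-wall list was at 458 and 543 against 238 and 229 CPM, with 5 of its 12 genes lower and 1 higher. Their part in the fall of the muscle genes was not tested.

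The spots were next divided by their muscle content, to see which dissociated-cell signature genes lie with the muscle in tissue. Muscle-rich spots were the 25% of each section's spots with the highest share of the 6 markers, so those 6 genes are not read as results here. The limit was at 3.63 and 2.76% in CO sections A and B and at 0.565 and 0.584% in DES sections A and B. The first spot outside the limit was at 3.63 and 2.76% and at 0.565 and 0.583%. As the spots were chosen on counts of the same sections, the p-values are likely too small.

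The myocyte signature followed the muscle. Leaving out the markers, 139 of the 144 signature genes tested were higher in muscle-rich than in other spots and none was lower (all 144 had a positive difference), beside 20.9% of all genes higher and 21.3% lower. The median log2 difference was 2.91. In 140 of 145 genes the muscle-rich spots were higher in every section. The largest differences among listed and signature genes were in Pcp4 (log2 4.79, SE 0.54), Myocd (4.66, SE 0.65), Sh3bgr (4.62, SE 0.49), Actc1 (4.22, SE 0.26) and Synm (4.18, SE 0.39). Pcp4 was at 9798 and 4962 CPM in the muscle-rich spots of CO sections A and B and at 546 and 468 CPM in their other spots. In DES sections A and B it was at 2500 and 2703 against 26.9 and 87.1 CPM. By role, 10 of the 11 contractile genes other than the markers, 25 of 27 anchors, 20 of 25 channel and calcium genes, 8 of 11 genes of relaxation signalling, 18 of 24 matrix genes and 7 of 11 genes of uterine position were higher. Of 13 transcription factors, 9 were higher. In 3 of these lists 1 gene was lower: the chloride channel Ano1, Wnt4 and the transcription factor Klf4. The 5 signature genes not called higher were Ap1s2, Ltbp1, Postn, Rgs5 and Stc1. Among the largest drops were those in the epithelial genes Cdh1 (log2 -3.37), Epcam (-3.23) and Krt18 (-2.69) and in Klf4 (-2.55).

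**Figure D5:**
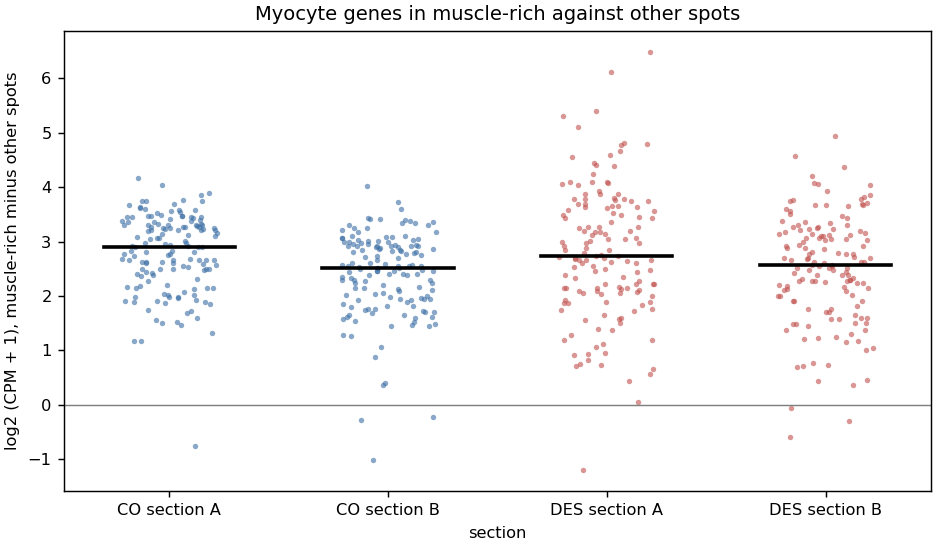
Difference between muscle-rich and other spots in log2 of CPM + 1 (y axis) for the 145 signature genes other than the 6 markers, in each section (x axis). Points are genes and black lines medians, at 2.90, 2.52, 2.73 and 2.57 in CO A, CO B, DES A and DES B. Nearly all points lie above 0 in all 4 sections.

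Most of the tested contraction receptors were higher in muscle-rich spots. Oxtr was at 363 and 89.3 CPM in the muscle-rich spots of CO sections A and B and 221 and 208 CPM in those of DES sections A and B, against 67.6, 18.7, 19.6 and 32.3 CPM in the other spots (log2 2.77, SE 0.22, adjusted p = 0.000286). Ptger3 (log2 3.72), Ednra (2.09) and Agtr1a (2.99) were higher as well, 7 of the 10 tested receptors in all, and Ptger4 was lower (-2.16). Of all genes, 20.9% were higher and 21.3% lower in muscle-rich spots. Ptgfr, with 2 UMIs in the single myocytes, was higher in muscle-rich spots (2.17, adjusted p = 0.00893) at 2.85, 10.7, 1.78 and 1.42 CPM. Pgr was higher (log2 0.81, adjusted p = 0.0291), and for Esr1 the difference was 0.20 (SE 0.17, adjusted p = 0.384), at 222 to 311 CPM in muscle-rich and 187 to 292 CPM in other spots.

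Within muscle-rich spots the treatments still differed. There, 52 of 144 signature genes other than the markers were lower in DES and none was higher (none had an unadjusted p under 0.05 in that direction), beside 2.21% of all genes lower and 3.64% higher. The markers that chose the spots were unequal between the treatments, and took 4.47 and 4.21% of the UMIs of the CO and 1.94 and 1.75% of the DES muscle-rich spots. The muscle-rich spots of the DES sections were also shallower, with medians of 2348 and 3371 UMIs against 7170 and 5696 UMIs. Epithelial markers were at 651 and 846 CPM in the CO and 1224 and 1700 CPM in the DES muscle-rich spots, and endothelial markers at 196 and 247 against 653 and 515 CPM. Of the 8 genes in each of these lists, 5 were called higher in DES. Their part in the differences was not tested.

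To set the genes against the muscle markers, each level was also taken as a percentage of the summed 6 markers of the same section. The 6 fell by unequal amounts, so their sum is not a direct measure of the amount of muscle. On this scale 111 of the 145 other signature genes were higher in both DES than in both CO sections, beside 94.7% of all tested genes, since the markers themselves were lower in DES. In 6 the share was lower, beside 0.752% of all genes: Acta1, Igsf9b, Optc, Pdlim3, Pln and Tpm2. Acta1 was at 1.84 and 3.17% of the markers in CO and 0.295 and 0.425% in DES sections. Pln was at 0.121 and 0.133% against 0.0882 and 0.0398%, and the proteoglycan gene Optc at 0.337 and 0.321% against 0.242 and 0.297%. Oxtr was at 0.939 and 0.247% against 1.68 and 1.85%. Within muscle-rich spots the same genes gave Acta1 a log2 difference of -4.59 (SE 0.33, adjusted p = 0.000327), Pln -2.28 (SE 0.42, adjusted p = 0.0186) and Optc -1.74 (SE 0.25, adjusted p = 0.00823). Ckm and Ptger3 were lower there too (-4.52 and -2.53), while Oxtr was at -0.03 (SE 0.52).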

How the data were processed

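Single-cell RNA of 1 CO and 1 DES library (10x Genomics) and spatial RNA of 2 CO and 2 DES sections (Visium) were analysed. The authors made the deposited single-cell counts (UMIs per gene and cell, not normalized) with Cell Ranger 3.0.1 on mm10, examined barcode swapping, removed doublets, applied a quality filter and named cell types. They made the deposited counts per spot with Space Ranger 1.2.2, also not normalized. The sequencing saturation that the authors deposited is a fraction per cell and gave no result. Gene lists and members were chosen with earlier results of these data known.

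UMIs were summed over cells, scaled to CPM and given exact Poisson 95% intervals. Shares of cells have Clopper-Pearson intervals, and a count of 0 was set a limit of 3 counts. Cells were also thinned to 3000 and 5000 UMIs. A list gene was called measured at 20 CPM or more in either group. UMIs lost to amplification or capture are not covered by the intervals. Sections were summed and tested with edgeR 4.0.16 (TMM, filterByExpr, quasi-likelihood, Benjamini-Hochberg at 0.05), the muscle-rich comparison with section as a block. The scripts were tested on simulated data first. Alternatives used DESeq2 1.42.0, other scalings, filters and spot limits, left out libraries, and Scrublet in scanpy 1.11.5. SEs of log2 differences were taken from the F statistic.

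Named genes were the 6 markers, list members at least 4-fold apart, all contraction and steroid receptors with a UMI, the 20 highest and 10 lowest ratios among genes at 50 CPM or more, and the 5 largest rises and falls past the threshold in each section comparison. Some genes that these rules name are counted with their lists but not reported here. Others are named to complete a list or a comparison and were chosen after their values were seen. Spots of a section come from 1 mouse, so p-values of DES against CO sections measure the spread between 2 mice per treatment. Those of muscle-rich against other spots measure how alike that difference was across the sections, with both treatments pooled. The section letters do not mark a pairing in the labels, and deviations of CO A and DES A from their group means had a correlation of -0.03 across genes.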

Additional observations from a re-analysis of the deposited data

Results flagged for a closer look

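Outside the annotated cells, 39 CO cells with no cell type held all 6 muscle markers, a signal outside the comparison of annotated types. They were counted only in the sums over all CO cells and among the cells without a type. They had a median of 12277 UMIs, 8.42% mitochondrial UMIs and a marker share of 3.34%, which the choice of cells partly fixes. Their levels of Acta2 (9678 CPM), Actg2 (4441 CPM), Pcp4 (2578 CPM) and Des (2783 CPM) were below those of the myocytes, with intervals that did not overlap. Oxtr was at 83.8 CPM (95% interval 60.4 to 113), also below the myocytes' 138 CPM (117 to 161), while Pgr at 239 CPM and Esr1 at 279 CPM lay inside the myocytes' intervals. At least 10 UMIs of the mesothelial genes were found in 3 of them and of the epithelial genes in 3.

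In 5 genes of other classes, levels differed in opposite directions in the 2 treatments when muscle-rich spots were set against other spots, in both sections of each. The difference between the treatments was not tested. For Cd79a of B cells the mean log2 difference was -0.448 in the CO and 1.30 in the DES sections. For the pericyte genes it was -1.62 and 1.216 in Higd1b, -0.187 and 2.02 in Ndufa4l2, -0.381 and 0.947 in Pdgfrb, and -0.522 and 2.62 in Rgs5. Rgs5 itself was at 68.5 and 108 CPM in the muscle-rich spots of CO sections A and B and at 132 and 114 CPM in those of the DES sections. In their other spots it was at 117 and 131 CPM in CO and 16.0 and 22.8 CPM in DES. The vessel-wall list as a whole was higher in muscle-rich spots of every section, by 1.143, 0.839, 1.89 and 1.79 on the log2 scale in CO A, CO B, DES A and DES B.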

How the results depend on the processing

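With all CO cells as the denominator the myocyte share was 0.262%. At 20 CPM in place of 50, chosen after seeing the data, the signature held 240 genes, and under the other alternatives 104 to 179. Relative to other types given equal weight, Rgs5 and Kcnj8 reversed (log2 -2.53 and -1.20). Of the other ratios under alternatives, 163 moved by more than 1 SD, each in the same direction, and 444 by less. Among the latter, 3 values changed sign, 2 of Bdkrb2 and 1 of Ptger1, which had few UMIs. In the 2 ratios of Bdkrb2 its 1 UMI had been raised to the floor of 3 UMIs, unlike in the main ratio. Its level itself stayed below the other cells, at 0.970 and 1.28 against 2.08 CPM.

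In whole sections the DESeq2 Wald test called 822 genes higher and 969 lower, with 101 signature genes lower. With the section letter as a replicate block, 298 genes were higher and 229 lower, with 0 signature genes higher (2 at an unadjusted p under 0.05) and 52 lower, and the calls of Lmod1 and Pcp4 were lost. No label makes the letters a pairing. Leaving out 1 section gave 3 to 1311 genes higher, 0 to 1508 lower, 0 to 3 signature genes higher and 0 to 116 lower. The fewest came without either DES section, when edgeR called 0 lower (1722 and 1712 genes had an unadjusted p under 0.05) and the lone DES section was assumed to vary like the CO pair.

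Restricted to muscle-rich spots, 245 genes were lower and 0 signature genes higher, and 2 uncalled differences changed sign: Esr1 0.027 and Pgr -0.35. Without CO section A and B in turn, Pgr was 0.86 and -0.37, and Oxtr 0.58 and -1.35. Without the section block, 1759 genes were lower in muscle-rich spots, and the call of Pgr was lost. The cause of these changes was not tested. The muscle-rich signature count stayed at 134 to 141 under all alternatives run. With 1096638 myocyte UMIs in all, a count of 0 allows up to 2.74 CPM.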
